A study of Rattus norvegicus with 9 samples.

Results

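The RNA of rat cardiomyocytes that had been deprived of oxygen, given oxygen back and treated with AS8351 was compared with the RNA of cells kept in normoxia, to describe how far the treated cells still stood from unstressed ones. The comparison used 6 of the 9 libraries of the series, 3 titled H/R-AS8351 and 3 titled normoxia, chosen by their titles. The count tables of the H/R-AS8351 libraries carry a different short code in their names, which no label explains, so the titles alone identify the treated group. Both groups were cells that the labels call NRCM cells, of the tissue heart and the cell type cardiomyocytes, grown in medium with serum. The H/R-AS8351 cells spent 6 h at 0.1% oxygen in medium free of glucose and pyruvate, then 12 h of reoxygenation at 21% oxygen in standard medium with 0.5 µM AS8351, described in the labels as an inhibitor of the histone demethylase Kdm5b. The normoxia cells had neither the low oxygen nor the compound, and the labels do not say whether they received the solvent DMSO. The 3 remaining libraries, H/R-DMSO, had the same low oxygen and reoxygenation with DMSO in place of the compound and are given beside the comparison. Low oxygen, medium without fuel, reoxygenation, solvent and compound therefore enter the comparison with normoxia as one.

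When blood flow to heart muscle stops, its cells run short of oxygen and fuel, and the return of oxygen adds a second injury through reactive oxygen and calcium overload. Hypoxia and reoxygenation (H/R) of cultured cardiomyocytes is a common model of this. Kdm5b removes methyl groups from lysine 4 of histone H3, a mark found at active promoters.

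The count tables carry Ensembl gene IDs only, and the rat gene table used here held 0 of the 30560. Kdm5b, Brinp2, markers of cardiomyocytes and of other cell types, and the pathway lists are therefore not analysed here, and the labelled cell type was not checked against its markers. Genes are described by their state against normoxia and by their abundance, and 2 IDs that were higher and 2 that were lower are named. In whole cultures, fewer cells of a type and less RNA per cell cannot be told apart. The 6 libraries held between 36970569 and 54888975 counts, with at least 1 count in 18254 to 18912 genes. After genes with few counts were removed, 15879 genes were tested. Whether the 3 libraries of each group are separate cultures is not stated, and the p-values then cover only the spread among these samples, which could be technical.

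Each tested gene was placed in 1 of 6 states. A gene is called when its adjusted p is below 0.05 in edgeR's quasi-likelihood test, and 6257 genes, 39.4% of those tested, were called in H/R-AS8351 against normoxia. Called genes at least 2-fold away from normoxia are the large differences, whatever their level in H/R-DMSO. A gene is level when the 95% confidence interval of its fold change lies wholly within 1.2-fold of normoxia in both directions, so that any larger fold lies outside the interval. Called genes under 2-fold that are not level form the smaller differences, and a gene that is neither called nor level is unresolved. Levels are TMM-scaled counts per 1000000 (CPM), a scale relative to the other RNA of a library.

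The large differences were mostly increases. In H/R-AS8351, 473 genes were higher than in normoxia at least 2-fold, 2.98% of the genes tested, and 178 were lower, 1.12% (edgeR quasi-likelihood test, adjusted p below 0.05). Past 4-fold, 111 genes were higher, 0.699% of those tested, and 5 were lower, 0.0315%. Past 8-fold, 33 were higher and 0 were lower. Level with normoxia were 4934 genes, 31.1% of those tested. A further 2329 genes were higher and 2533 lower by less than 2-fold, and 5432 were unresolved. Over all 15879 genes the median size of the difference was 0.19 on the log2 scale, a fold of 1.14, and 1 gene in 10 differed by more than 0.74.

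**Figure D1:**
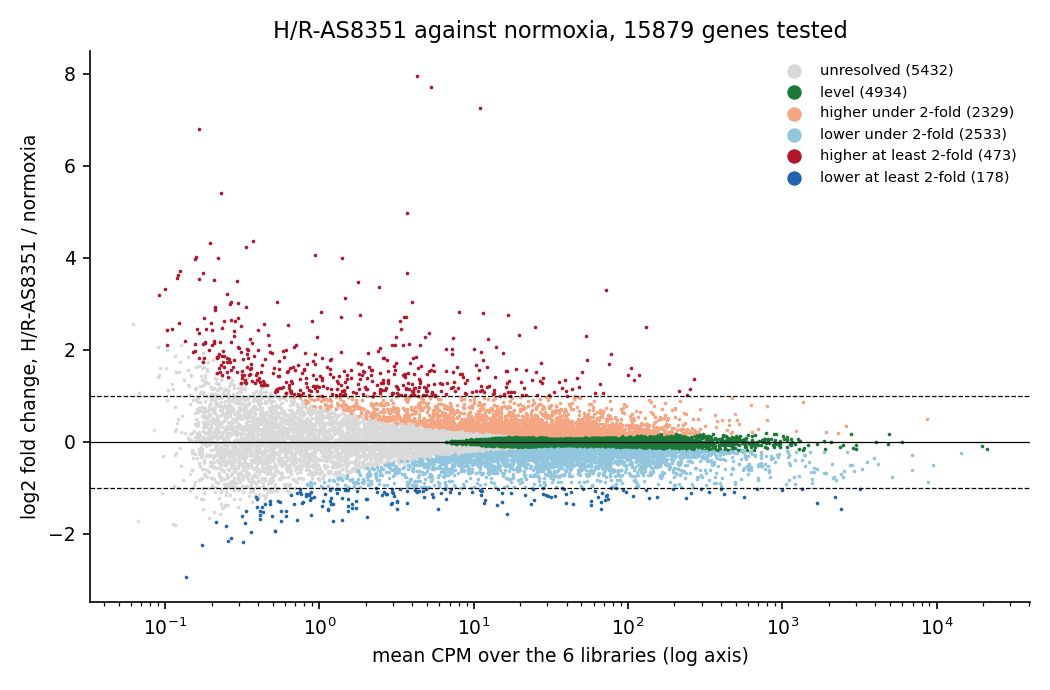
Each point is 1 of the 15879 genes tested. The horizontal axis is the mean CPM over the 3 normoxia and 3 H/R-AS8351 libraries on a log axis, the vertical axis is the log2 fold change of H/R-AS8351 against normoxia, dashed lines mark 2-fold, and the colours are the 6 states. The points past 2-fold lie mostly above the upper line and at low CPM, while the level genes form the band around 0 at higher CPM.

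The split of the called genes between directions rested on the scaling. With TMM, 3127 genes were higher, 19.7% of those tested, and 3130 lower, also 19.7%. With the total count as the only scaling, 5875 were higher and 1786 lower, and the higher ones made up 76.7% of the calls, against 49.98% with TMM. The median of all genes was 0.12 higher under that scaling on the log2 scale. The excess of large increases stood under both: scaled to the total count, 620 genes were higher and 111 lower at least 2-fold, and these included all 473 higher genes of the TMM scale and none of the lower genes outside its 178. A test against the 2-fold threshold itself, edgeR's glmTreat, called 124 genes higher and 27 lower. That test needs an interval clear of 2-fold, and intervals were wide at low counts. The called gene just inside the threshold was 2.003-fold higher and the one just outside 1.998-fold. Between 1.9-fold and 2-fold there were 55 higher and 55 lower called genes, and between 2-fold and 2.1-fold there were 52 higher and 37 lower.

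The genes higher at least 2-fold were mostly of low abundance. Their median level over the 6 libraries was 1.47 CPM, with an interquartile range from 0.409 to 4.96 CPM, and 201 of the 473 were below 1 CPM. Of these genes, 92 had fewer than 10 counts in every normoxia library, and 1 had no count in any of them. Among genes of 1 CPM or more on average, 272 were higher at least 2-fold, 40 at least 4-fold and 11 at least 8-fold. The median log2 fold change of the 473 was 1.48, with an interquartile range from 1.19 to 1.96. In 453 of them (95.8%) the 2 groups had separate CPM ranges, against 48.9% of all genes tested. Separate ranges largely follow from the call: the shares were 95.2% and 96.8% of the genes called higher and lower by less than 2-fold. In 201 genes the lowest H/R-AS8351 library was at least 2-fold above the highest normoxia library, and in 38 it was at least 4-fold above.

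The genes lower at least 2-fold were fewer, and their folds lay close to the threshold. The median log2 fold change of the 178 was -1.20, with an interquartile range from -1.35 to -1.09, and the 5 genes past 4-fold were all below 1 CPM. The median level of the 178 was 3.00 CPM and the upper quartile was 30.2 CPM. In 174 of the 178 (97.8%) the groups had separate ranges, against 48.9% of all genes tested. Here too, separate ranges largely follow from the call. In 57 genes the highest H/R-AS8351 library was at least 2-fold below the lowest normoxia library. In 9 of the 178 every H/R-AS8351 library had fewer than 10 counts.

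With the sets of the TMM scale, the large decreases weighed more in the RNA pool than the large increases. Total-count scaling gave other sets, of 620 higher and 111 lower genes. At 100 CPM and over, 9 rather than 20 were then lower and 12 rather than 9 higher. The shares of those sets were not computed. The 178 lower genes together held 2.36% ± 0.0249 (SD, n = 3) of the counts of tested genes in normoxia and 1.15% ± 0.0234 in H/R-AS8351. The 3 normoxia libraries were between 2.34% and 2.39% and the 3 H/R-AS8351 libraries between 1.12% and 1.17%. In H/R-DMSO these genes held 0.628% ± 0.0115, below both. The 473 higher genes held 0.209% ± 0.000428 in normoxia, 0.612% ± 0.0112 in H/R-AS8351 and 0.720% ± 0.00647 in H/R-DMSO. The smaller differences took a larger part of the counts. Genes lower by less than 2-fold held 35.4% in normoxia and 28.4% in H/R-AS8351, and genes higher by less than 2-fold 9.36% and 13.1%. All these genes were chosen by the difference between normoxia and H/R-AS8351, so the shares describe the size of that difference and carry no test. The choice also bears on how near H/R-AS8351 lies to H/R-DMSO in them.

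**Figure D2:**
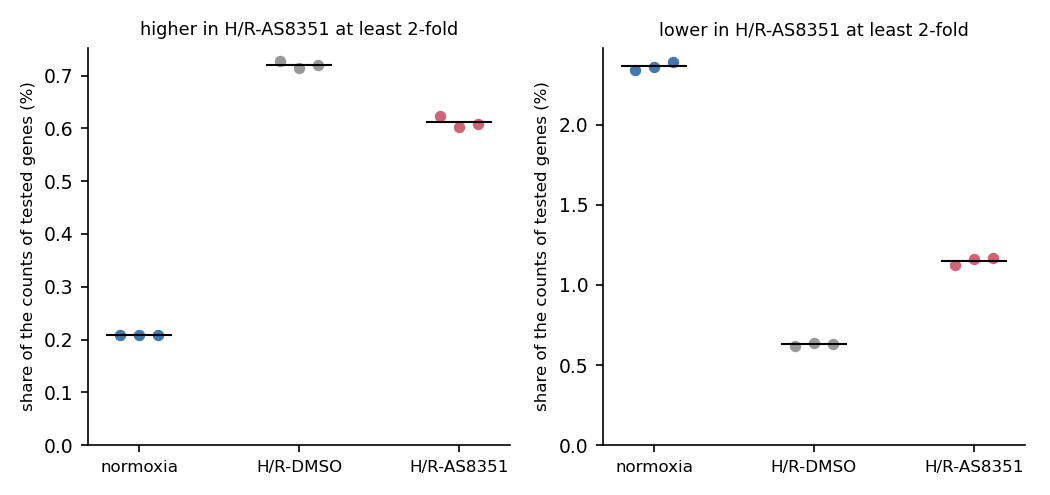
Share of the counts of all tested genes, in percent, taken by the 473 genes higher (left) and the 178 genes lower (right) at least 2-fold in H/R-AS8351 against normoxia. Points are the 9 libraries and lines the group means of 3. The H/R-AS8351 libraries lie between normoxia and H/R-DMSO in both panels, nearer to H/R-DMSO. The genes were chosen as at least 2-fold from normoxia in H/R-AS8351, which favours a place away from normoxia.

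A few abundant genes carried most of the loss within the 178 lower genes. Over all called lower genes the CPM loss was less concentrated, with 11.1% of it in the 4 largest losses and 20.8% in the 10 largest. Among the 178 lower genes, 4 genes made up 54.4% of the CPM lost and the 10 with the largest losses made up 77.2%. The 4 genes stood at 2408 to 4296 CPM in normoxia and at 958 to 2109 CPM in H/R-AS8351, with log2 fold changes from -1.46 to -1.03 (largest adjusted p = 6.35e-27 by edgeR). Their ranges did not overlap between the groups in 4 of 4, where 48.9% of all genes tested had separate ranges. In H/R-DMSO the same 4 genes were at 254 to 1831 CPM. Among the 473 higher genes the gain was spread more evenly, with 38.8% of it in the 10 genes that gained most. Those 10 rose from 13.3 to 159 CPM in normoxia to 132 to 385 CPM in H/R-AS8351 (largest adjusted p = 4.25e-25 by edgeR), and were at 149 to 425 CPM in H/R-DMSO.

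The state of a gene moved with its abundance. Below 1 CPM, 89.0% of 2454 genes were unresolved and 0 were level, since the median confidence interval reached 1.01 on the log2 scale to each side. From 1 to 10 CPM, 64.8% of 3592 genes were unresolved and 1.87% level, and 194 were higher and 65 lower at least 2-fold. From 10 to 100 CPM, 46.7% of 7825 genes were level, with 69 higher and 44 lower at least 2-fold. At 100 CPM and over, 60.5% of 2008 genes were level and 0 unresolved, and the confidence interval reached 0.08 on the log2 scale to each side. In that class 834 genes were lower and 361 higher, with 20 lower and 9 higher at least 2-fold. With total-count scaling the order in this class turned, with 505 genes lower and 883 higher, and 9 lower and 12 higher at least 2-fold. Below 10 CPM the higher genes stayed the more numerous under TMM, RLE, upper-quartile and total-count scaling.

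**Figure D3:**
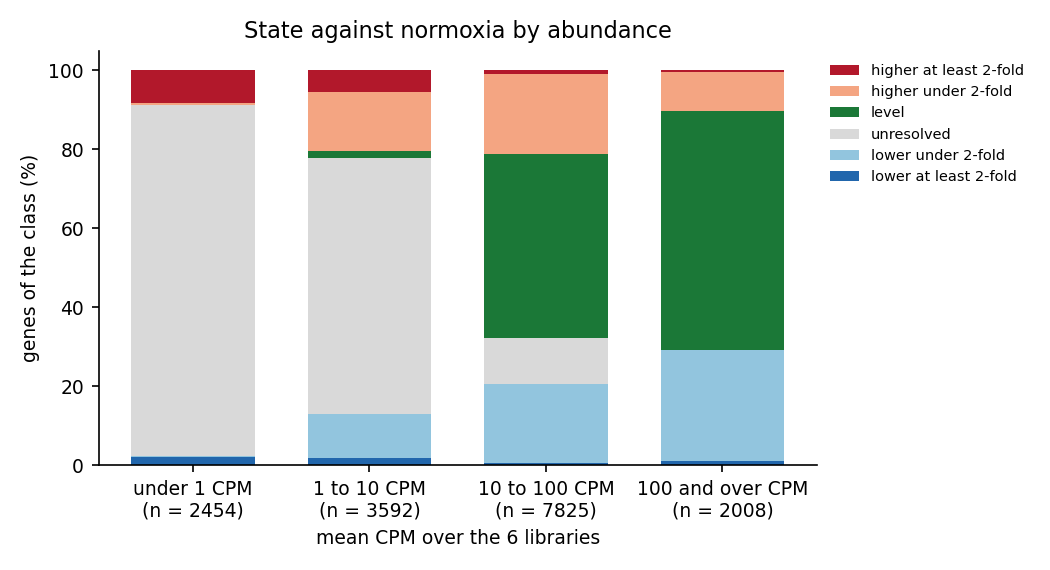
Stacked bars give the percentage of genes in each of the 6 states, for 4 classes of mean CPM over the 6 libraries, with the number of genes under each bar. Unresolved genes fall from 89.0% of the class under 1 CPM to 0 at 100 CPM and over, where 60.5% of genes are level and 28.2% lower by less than 2-fold.

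Among the 100 genes with the highest CPM, which ranged from 953 to 21256 CPM, 38 were level with normoxia. Another 50 were lower by less than 2-fold, 6 were lower at least 2-fold, 6 were higher by less than 2-fold and 0 were higher at least 2-fold. Their log2 fold changes ran from -1.46 to 0.86. These 100 genes held 28.2% of the counts of tested genes in normoxia and 25.0% in H/R-AS8351.

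The level genes were abundant ones, which largely follows from the narrow interval that the definition needs. Their median was 53.8 CPM, with an interquartile range from 29.3 to 99.1 CPM, and their largest point difference was 1.14-fold. Of the 4934 level genes, 744 were also called: they differed from normoxia in the test, but by less than 1.2-fold. Separate CPM ranges were seen for 28.3% of the level genes, below the 48.9% of all genes tested, which largely follows from how level genes are defined. The 10 most abundant level genes stood at 2794 to 21256 CPM, with log2 fold changes from -0.15 to 0.18 and confidence intervals of at most 0.08 to each side. In H/R-DMSO against normoxia these 10 ran from -0.52 to 0.33. With total-count scaling, 4047 genes were level, of which 2824 were among the 4934 of the TMM scale. With RLE scaling 4796 of 4930 level genes were among them, and with upper-quartile scaling 4795 of 4933. The level genes held 50.2% ± 0.0898 (SD, n = 3) of the counts of tested genes in normoxia and 54.1% ± 0.216 in H/R-AS8351.

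The comparisons with normoxia of H/R-AS8351 and of H/R-DMSO share the 3 normoxia libraries, so each is given with its own values and no test was made between them. The H/R-DMSO counts were made with TMM scaling alone, and how far their split between directions rests on it was not tested. In H/R-DMSO against normoxia, 711 genes were higher at least 2-fold, 4.48% of those tested, and 691 lower, 4.35%. Past 4-fold these were 156 higher, 0.982%, and 173 lower, 1.09%, and past 8-fold 43 and 42. Level genes were 3811 in H/R-DMSO, 24.0% of those tested, and 4934 in H/R-AS8351. The median size of the log2 difference from normoxia was 0.25 over all genes in H/R-DMSO and 0.19 in H/R-AS8351.

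**Figure D4:**
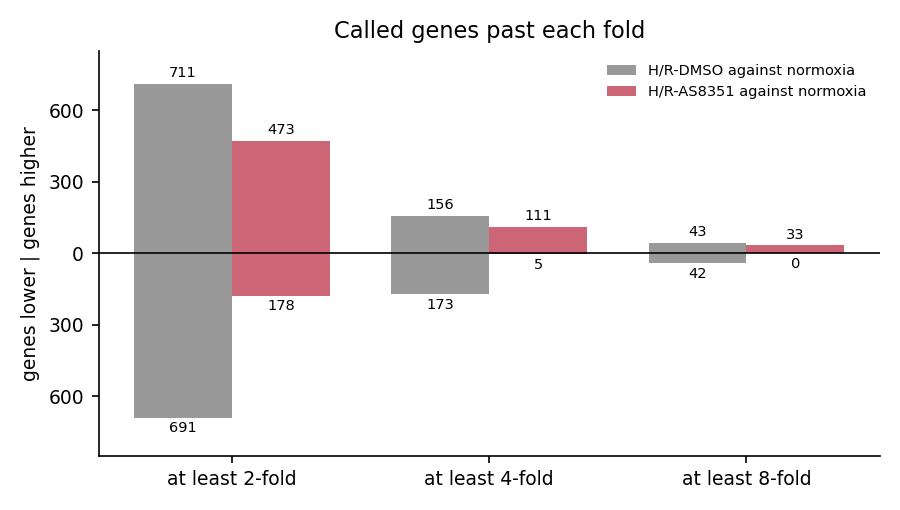
Number of called genes at least 2-fold, 4-fold and 8-fold higher (above the line) and lower (below it) than normoxia, for H/R-DMSO and for H/R-AS8351, each against the same 3 normoxia libraries. In H/R-DMSO higher and lower genes are similar in number, 711 and 691 at 2-fold. In H/R-AS8351 the lower genes are the fewer, 178 against 473. All counts are with TMM scaling, and those of H/R-DMSO were not repeated under another scaling.

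The genes at least 2-fold from normoxia had the following values in the other comparisons, which share libraries with the one that chose them. For the 473 higher genes, the median log2 fold change of H/R-DMSO against normoxia was 1.59, with an interquartile range from 1.21 to 2.07, beside 1.48 for H/R-AS8351 against normoxia. The H/R-DMSO values ran from -1.59 to 8.18, so not every one of these genes was higher with the solvent. Against H/R-DMSO, the H/R-AS8351 libraries had a median of -0.13 over these genes, with an interquartile range from -0.35 to 0.22. For the 178 lower genes the median was -2.05 in H/R-DMSO against normoxia, with an interquartile range from -2.79 to -1.49, beside -1.20 in H/R-AS8351. Here the H/R-DMSO values ran from -5.16 to -0.0047, so some of these genes were not 2-fold lower with the solvent. Against H/R-DMSO, H/R-AS8351 had a median of 0.80 over them, with an interquartile range from 0.28 to 1.55. For the level genes, the values of H/R-DMSO against normoxia had an interquartile range from -0.09 to 0.12, and 90% of them lay between -0.28 and 0.27. Over all genes, the median log2 fold change of H/R-AS8351 against H/R-DMSO was -0.01. The higher group stood close to its H/R-DMSO level at the median, and most of the level genes differed little from normoxia in H/R-DMSO too.

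The 3 H/R-AS8351 libraries gave like values. Set against the mean of normoxia, the median log2 difference of the 473 higher genes was 1.44, 1.40 and 1.45 in replicates 1, 2 and 3, and that of the 178 lower genes was -1.21, -1.15 and -1.17. In each of them at least 408 of the 473 higher genes and at least 134 of the 178 lower genes were 2-fold or more from that mean. The genes were chosen with these same libraries, so this likeness is partly built in and is no separate support. The median SD of log2 CPM within a group, over genes of at least 1 CPM, was 0.068 in normoxia, 0.072 in H/R-AS8351 and 0.081 in H/R-DMSO.

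Among genes of 5 CPM or more on average whose groups did not overlap, 118 were higher and 74 lower at least 2-fold. The mean is over the normoxia and H/R-AS8351 libraries, so a gene near 0 in normoxia enters the set through its level in H/R-AS8351, and the order is by the distance of these groups. Among the increases this choice favours genes with high values in H/R-AS8351, and among the decreases genes with high values in normoxia. The values against H/R-DMSO below are descriptions for the 2 largest increases. The p-values against normoxia given for named genes come from the comparison that chose and ranked them, and add no separate support. ENSRNOG00000002331 stood at 0.0484, 0.0778 and 0 CPM in the normoxia libraries and at 11.5, 10.1 and 9.88 CPM in the H/R-AS8351 libraries. It was near absent in normoxia, where it had 6 counts in all, and present in every H/R-AS8351 library, with 1356 counts in all. The log2 fold change was 7.72 (95% confidence interval 6.57 to 9.04, SE 0.61, edgeR adjusted p = 2.32e-25). With so few normoxia counts the size moved with 1 library: it was 8.49 without replicate 2 of normoxia. In H/R-DMSO it was at 4.25, 4.45 and 5.04 CPM, below every H/R-AS8351 library. The log2 fold change of H/R-AS8351 against H/R-DMSO was 1.19 (SE 0.14).

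ENSRNOG00000019500 had 18 counts over the 3 normoxia libraries, at 0.193, 0.117 and 0.113 CPM. In H/R-AS8351 it stood at 23.8, 24.5 and 17.7 CPM. The groups were far apart, and replicate 3 was the lowest of the treated libraries. The log2 fold change was 7.26 (edgeR adjusted p = 6.28e-29, SE 0.37). In H/R-DMSO the gene was at 4.06, 3.67 and 4.19 CPM, and the H/R-AS8351 libraries were all higher than these. Their difference was 2.46 on the log2 scale (SE 0.12), a fold of 5.51.

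The 2 largest decreases in this set were genes that lay between normoxia and H/R-DMSO with the compound. ENSRNOG00000024082 was at 24.6, 23.6 and 25.2 CPM in normoxia and at 9.17, 8.06 and 7.50 CPM in H/R-AS8351. All treated libraries were below all normoxia libraries, with a log2 fold change of -1.57 (edgeR adjusted p = 6.40e-18, SE 0.09). In H/R-DMSO it was lower still, at 1.71, 1.61 and 1.95 CPM. There H/R-AS8351 was higher by 2.21 on the log2 scale (edgeR adjusted p = 2.63e-18, SE 0.13).

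ENSRNOG00000064166 was at 9.22, 7.87 and 8.59 CPM in normoxia and at 3.24, 3.11 and 2.97 CPM in H/R-AS8351, without overlap. Its log2 fold change was -1.46 (edgeR adjusted p = 6.78e-11, SE 0.15). In H/R-DMSO it stood at 0.722, 1.14 and 0.784 CPM. H/R-AS8351 was higher than that by 1.83 on the log2 scale (edgeR adjusted p = 4.58e-10, SE 0.20).

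**Figure D5:**
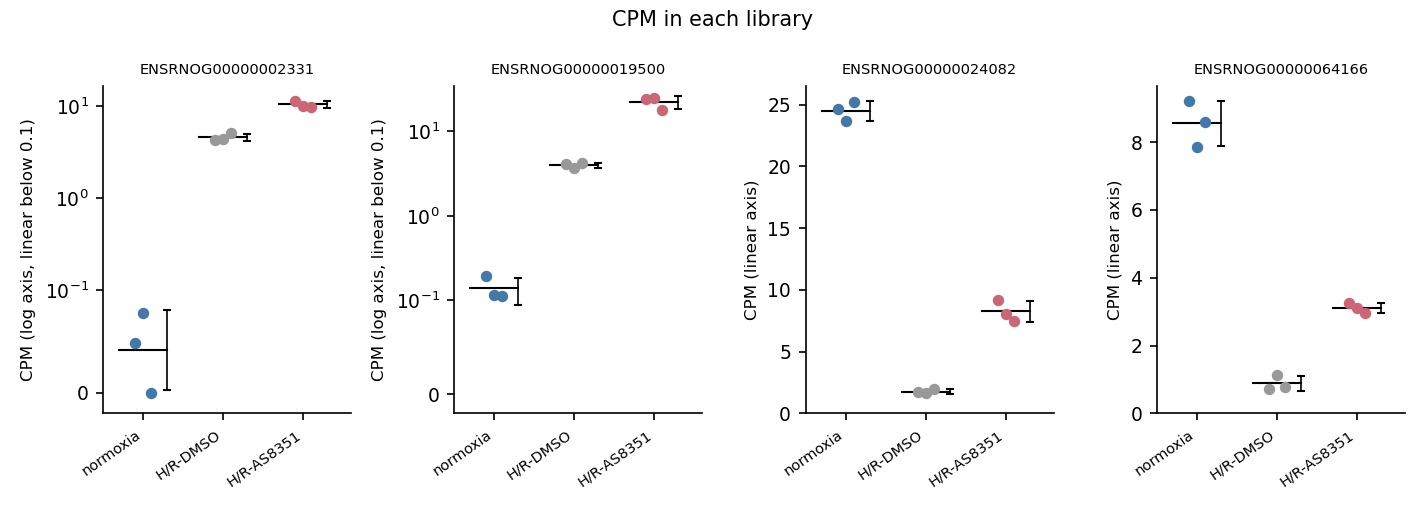
CPM of the 4 named genes in each of the 9 libraries, with group means as lines and SD (n = 3) as bars. The 2 genes on the left have a log axis that is linear below 0.1 CPM and are highest in H/R-AS8351, and the 2 on the right have a linear axis from 0, with H/R-AS8351 between normoxia and H/R-DMSO.

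The 10 largest increases and the 10 largest decreases of this set were also set beside H/R-DMSO. The 10 increases had log2 fold changes against normoxia from 2.33 to 7.72 and levels from 5.15 to 132 CPM (largest adjusted p = 1.41e-17 by edgeR). In H/R-DMSO against normoxia they ran from 1.91 to 6.53. Against H/R-DMSO they ran from -0.63 to 2.46. In that comparison 4 of the 10 were called higher and 3 lower with AS8351 than with DMSO, where 13.1% and 9.97% of all genes tested were. The 10 decreases had log2 fold changes against normoxia from -1.57 to -1.34 and levels from 5.83 to 2393 CPM (largest adjusted p = 6.78e-11 by edgeR). In H/R-DMSO against normoxia they ran from -5.16 to -1.85, and in H/R-AS8351 against H/R-DMSO from 0.52 to 3.71, higher with AS8351 in 10 of 10. The choice of genes by their distance between H/R-AS8351 and normoxia bears on these counts, since the same H/R-AS8351 libraries enter both comparisons, and the difference between the 2 lists was not tested.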

How the data were processed

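RNA was measured in 9 libraries, and the titles of the samples gave the groups and replicate numbers. For every library the authors deposited 1 table of raw counts by Ensembl gene ID. The build rn6 and the tools featureCounts 2.0.1, STAR 2.7.3a, Trimmomatic 0.39 and DESeq2 1.32.0 are listed, per the submitters' processing notes. Annotation release and strand setting: not given in the sources used here. How reads of overlapping, antisense or near-identical genes were assigned is therefore not known.

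The analysis used edgeR 4.0.16 in R 4.3.3: filterByExpr at its defaults (minimum count 10, minimum total count 15), TMM scaling, and one quasi-likelihood model of all 9 libraries with a mean per group and no covariate. The Benjamini-Hochberg adjustment ran over all 15879 genes tested. CPM values are TMM-normalised. Standard errors and 95% confidence intervals are Wald values from the model's quasi-likelihood dispersion and total degrees of freedom. Calls and intervals were tested on simulated data with 200 changed genes, none of very low expected count and far fewer than were called here. There, 56% of genes set 2-fold apart were called at least 2-fold, and 100% of those set 4-fold apart. Of genes set 1.2-fold apart, 38% were called in the right direction. Of unchanged genes, 59.7% came out level, and 95.0% had an interval that included no change. The simulated spread was drawn from the dispersion trend of the same model, so this coverage is partly built in. Shares are of the counts of tested genes, which held at least 99.97% of a library.

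The IDs named are the 2 largest increases and 2 largest decreases among called genes at least 2-fold from normoxia, with a mean of at least 5 CPM and ranges that do not overlap. The rule's symbol criterion and gene lists could not be applied. The table of 47357 rat genes (GRCr8) lists no Ensembl ID. The comparison, the states and the lists were chosen with earlier results of these data known. Alternatives were RLE, upper-quartile and total-count scaling, other filters, DESeq2 1.42.0, limma-voom (limma 3.58.1), a fit of the 2 groups alone, the replicate block, glmTreat, wider margins and each library left out.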

Additional observations from a re-analysis of the deposited data

How the results depend on the processing

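All 60 values of the 4 named genes under the alternatives had the reported direction and an adjusted p below 0.05, which largely follows from their choice by size. The log2 fold change of ENSRNOG00000002331 ranged from 7.27 to 8.49 with single libraries left out. Leaving aside the fits without a library, 58 of 71 counts came within 1.5 times of those reported, and the exceptions follow. With total-count scaling, 5875 genes were higher, 1786 lower and 111 lower at least 2-fold. With a mean of at least 1 CPM over 9 libraries, by construction with fewer genes, 411 genes differed at least 2-fold, 293 higher and 118 lower. With that mean over the 6 libraries, 401 differed and 272 were higher. The glmTreat test, stricter by construction, called 151, 124 higher and 27 lower. Margins of 1.3-fold and 1.5-fold, wider by construction, gave 7583 and 10297 level genes. With each library left out, all 42 counts stayed within 1.5 times. They ranged from 5459 to 5670 genes called, from 2638 to 2822 higher, from 2751 to 2898 lower, from 606 to 652 at least 2-fold, from 430 to 470 of these higher, from 166 to 207 lower, and from 4305 to 4411 level.

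Same-numbered libraries of the 2 groups had correlations of their deviations from -0.037 to 0.005, and differently numbered ones from -0.043 to 0.041, so the numbers gave no pairing. With the replicate block, 6468 genes were called, 648 at least 2-fold, and 5049 were level. No 2 libraries within a group were alike within counting noise (chi-square per degree of freedom from 3.92 to 6.14). The counts by abundance under each scaling were chosen after seeing the data. Depth limits the genes below 10 CPM, most of which could be called neither different nor level.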
